A study of Mus musculus with 6 samples.

Results

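The genes described are 9 genes of the tight junction, chosen by name among the 20756 genes in the table: the claudins Cldn2, Cldn3, Cldn4 and Cldn7, the other membrane proteins Ocln and F11r, and the scaffolds Cgn, Tjp1 and Tjp3. They were measured in mouse tumor organoids (MTOs), epithelial cultures grown from intestinal tumors, of the strain C57BL/6. A group of 3 libraries, replicates 10, 11 and 12, came from MTOs labelled sgPrkci, in which CRISPR/Cas9 was directed against Prkci, the gene of the atypical protein kinase PKCλ/ι. The other 3 libraries, replicates 13, 14 and 15, came from MTOs labelled sgPrkcz, directed against Prkcz, the gene of PKCζ. All 6 were left untreated in advanced DMEM/F12 with HEPES, Glutamax, B-27 and EGF. The study does not state for these lines whether each is a single clone. MTOs with a control guide were not analysed here, and a direction is always that of sgPrkci relative to sgPrkcz. The libraries are called biological replicates without saying what separated them, so p-values measure only the spread among these libraries. In the main test that spread comes in part from other genes of like level. Groups follow the sample labels, and the study's own material names these libraries the other way round in a single place. With those names every direction given here would be the opposite.

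Tight junctions close the space between epithelial cells at the border of the apical surface. Claudins set what can pass: Cldn2 forms channels for cations and water, whereas Cldn3, Cldn4 and Cldn7 are usually counted as sealing claudins. Ocln (occludin) and F11r (the adhesion molecule JAM-A) lie beside them in the membrane. The ZO proteins Tjp1 (ZO-1) and Tjp3 (ZO-3) and cingulin (Cgn) lie under the membrane and join claudins to actin. Atypical PKCs act with PAR3 and PAR6 in the polarity complex at the apical border, which takes part in building these junctions.

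Messenger RNA was read at its 3' end, and values are reads of a gene scaled to a fixed library total (CPM). Libraries held 1593480 to 2815760 reads, with which a single read was worth 0.355 to 0.628 CPM. The sum of 7 epithelial markers was 3602 to 3991 CPM in sgPrkci libraries, against 4331 to 4597 CPM in sgPrkcz libraries. The 7 did not move one way: Vil1 (93.1 CPM in sgPrkci, 46.1 CPM in sgPrkcz) and Epcam were higher, Cdh1, Krt18 and Krt19 were lower, and Krt8 and Cdx2 did not pass. Of 7 leukocyte markers 3 were in the table, with a sum of 7.94 to 12.45 CPM in sgPrkci and 4.10 to 7.42 CPM in sgPrkcz, nearly all of it Cd68, and Ptprc reached at most 1.51 CPM. Cd68 averaged 10.1 CPM in sgPrkci and 5.47 CPM in sgPrkcz and was called higher (log2 difference 0.78, limma adjusted p = 0.0214). Its groups did not overlap. All 6 fibroblast markers were in the table, with a sum of at most 2.34 CPM and with Col1a2 and Col3a1 at 0 in every library. Of 5 endothelial markers 3 were in the table, at 0 in every library except for 0.742 CPM in sgPrkcz replicate 13. Genes with ribosomal RNA sequence (Gm42418, mt-Rnr1 and mt-Rnr2) took 22.2% ± 1.5 of the reads in sgPrkci and 18.3% ± 0.979 in sgPrkcz (SD, n = 3 each). Whether the marker differences take part in the results was not tested. In bulk samples, fewer cells of a type and less RNA per cell cannot be told apart. Prkci itself was at 53.9, 56.5 and 46.9 CPM in sgPrkci, against 72.3, 34.5 and 59.7 CPM in sgPrkcz, and Prkcz had 5 to 13 reads in every library. Small deletions at a guide's cut need not lower a 3' tag, so these values do not check the labels.

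The 4 claudins are the genes on which the comparison of pore and seal turns, and the 250 bases before the RefSeq transcription start (GRCm38.p6) of each are shown so that their differing values can be read beside their sequences. Capitals mark matches, on either strand, to the letters of 8 motifs: TTTTAT for CDX, GTTAAT for an HNF1 half-site, AGATAA for GATA factors, CAGGTG for the Snail E-box, TGANTCA for AP-1, GGG and TTTCC with any 2 bases between for kappa-B, GGGCGG for the GC box and TATAAA for the TATA box. The last was added once the Cldn2 window had been read.
Cldn2, chrX:139800558-139800807, plus strand: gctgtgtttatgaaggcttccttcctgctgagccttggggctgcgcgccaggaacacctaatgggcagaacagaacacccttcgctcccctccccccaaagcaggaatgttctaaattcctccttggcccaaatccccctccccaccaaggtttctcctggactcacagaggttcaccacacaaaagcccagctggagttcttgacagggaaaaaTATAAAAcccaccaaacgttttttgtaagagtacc
Cldn3, chr5:134985964-134986213, plus strand: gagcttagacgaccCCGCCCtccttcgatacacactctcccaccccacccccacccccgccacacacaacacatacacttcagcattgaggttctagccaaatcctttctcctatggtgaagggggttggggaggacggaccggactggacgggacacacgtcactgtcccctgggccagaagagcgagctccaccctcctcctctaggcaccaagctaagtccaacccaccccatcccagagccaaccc
Cldn4, chr5:134946935-134947184, minus strand: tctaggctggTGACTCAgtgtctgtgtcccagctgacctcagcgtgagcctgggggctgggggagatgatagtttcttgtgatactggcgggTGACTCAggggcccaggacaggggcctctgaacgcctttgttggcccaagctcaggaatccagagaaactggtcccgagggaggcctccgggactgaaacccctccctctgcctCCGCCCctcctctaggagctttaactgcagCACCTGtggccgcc
Cldn7, chr11:69964529-69964778, plus strand: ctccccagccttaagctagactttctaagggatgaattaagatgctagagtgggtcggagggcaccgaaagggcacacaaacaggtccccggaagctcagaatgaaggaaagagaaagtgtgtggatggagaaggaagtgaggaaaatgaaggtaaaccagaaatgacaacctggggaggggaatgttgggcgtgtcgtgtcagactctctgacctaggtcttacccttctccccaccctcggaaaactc
Each is written 5' to 3' on the strand of its gene.

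The Cldn2 window held TATAAA at 35 to 30 bases before the start, which 12.4% of 32851 RefSeq promoter windows of this length hold, and it was the only one of 12 windows of the 9 genes to do so. The same run of letters contains ATAAAA, the CDX letters on the other strand, at 34 to 29 bases before the start, so the capitals cover overlapping matches. CDX letters stand in 17.0% of all windows, and also in those of Tjp1 and Tjp3. The Cldn4 window held TGACTCA, an AP-1 match, at 240 to 234 and again at 158 to 152 bases before the start, and AP-1 letters stand in 6.75% of all windows. It also held a GC box at 44 to 39 bases (32.7% of all windows) and a Snail E-box at 14 to 9 bases (17.2% of all windows). Cldn3 had a GC box alone, at 236 to 231 bases, and the Cldn7 window shown had no match, whereas the window of a later Cldn7 start, inside the gene, held the Snail E-box and the GC box. GATA letters (9.99% of all windows) stood only at Tjp3 among the 9 genes. No window of the 9 genes held the HNF1 or kappa-B letters, which 6.43% and 1.41% of all windows hold. Matches to letters describe these windows and were not tested as binding sites.

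Cldn2 was the claudin with the widest gap between groups. It stood at 413.8, 449.3 and 344.8 CPM in the 3 sgPrkci libraries, against 71.9, 63.4 and 74.9 CPM in the 3 sgPrkcz libraries. Every sgPrkci library lay above every sgPrkcz library. The means were 402.6 ± 53.1 CPM in sgPrkci and 70.1 ± 5.98 CPM in sgPrkcz (SD, n = 3 each), a 5.75-fold difference. On the log2(CPM + 1) scale, Cldn2 was higher in sgPrkci by 2.50 ± 0.10 (SE, limma adjusted p = 1.48e-14). It passed the threshold of 0.05 in all 16 alternative settings, with log2 differences of 2.36 to 2.63. Without the intensity trend the limma adjusted p was 5.8e-05. The gene lies on GRCm38 chromosome X at 139800828 to 139811386 (plus strand, ENSMUSG00000047230), and no other annotated gene overlaps it.

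Cldn4, a sealing claudin, was also higher in sgPrkci. Its values were 101.5, 80.3 and 99.4 CPM in sgPrkci, against 43.0, 51.5 and 39.8 CPM in sgPrkcz. The groups did not overlap, the lowest sgPrkci library being replicate 11. The difference was 2.09-fold, or 1.05 ± 0.13 on the log2 scale (SE, limma adjusted p = 7.94e-07), and it passed in all 16 alternatives. Cldn4 is a gene of 1 exon on chromosome 5 at 134945119 to 134946934 (minus strand, ENSMUSG00000047501).

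Cldn3, the neighbour of Cldn4 on chromosome 5 (134986214 to 134987472, plus strand, ENSMUSG00000070473), is also a gene of 1 exon, and the starts of the pair are 39.3 kb apart and point away from each other. It had 130.1, 119.6 and 152.7 CPM in sgPrkci, against 105.7, 109.2 and 107.7 CPM in sgPrkcz. The sgPrkcz libraries lay close together, and all 3 sgPrkci libraries were above them, replicate 12 most of all. Cldn3 was higher by 0.31 ± 0.10 on the log2 scale (SE, limma adjusted p = 0.0166), with a 95% interval of 0.10 to 0.52. Without sgPrkci replicate 12 the difference was 0.21 (adjusted p = 0.128), and without the intensity trend the adjusted p was 0.0865. The antisense gene Wbscr25 covers the 3' end of Cldn3, at 2.26, 2.80 and 3.20 CPM in sgPrkci, against 2.23, 0.628 and 1.76 CPM in sgPrkcz. The sources used here do not give whether the counting used strand.

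Cldn7, the third sealing claudin, went the other way. It stood at 108.6, 99.5 and 88.1 CPM in sgPrkci, against 121.3, 155.6 and 130.5 CPM in sgPrkcz. All 3 sgPrkci libraries lay below the sgPrkcz libraries, of which replicate 14 was the highest. Cldn7 fell by 0.45 ± 0.11 on the log2 scale in sgPrkci (SE, limma adjusted p = 0.00176), and passed in all 16 alternatives with values of -0.53 to -0.33. It lies on chromosome 11 at 69964779 to 69967885 (plus strand, ENSMUSG00000018569).

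**Figure D1:**
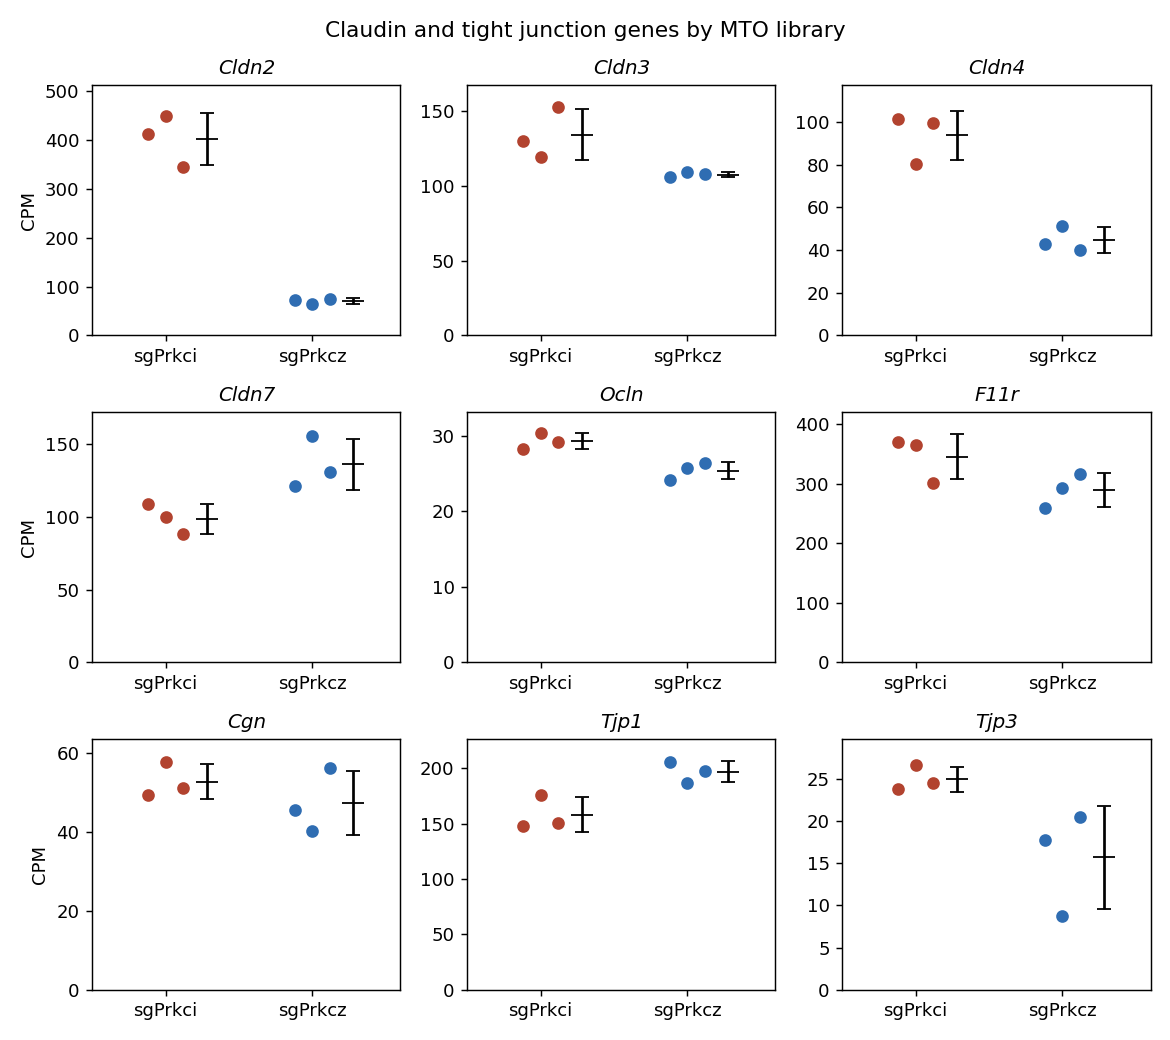
Level of each of the 9 genes in CPM (vertical axes, each from 0) in every library, with sgPrkci on the left and sgPrkcz on the right of each panel, points for libraries, bars for means and error bars for SD (n = 3 each). Cldn2 averaged 402.6 CPM in sgPrkci and 70.1 CPM in sgPrkcz, whereas the groups overlap for F11r and Cgn.

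The question of pore against seal was taken up as the ratio of Cldn2 to each sealing claudin within a library, in which any scaling of the library cancels. Fold differences come from mean log2 ratios with 1 CPM added to each gene. Levels of 3' tags depend on the gene, so a ratio is read only between groups. The Cldn2 to Cldn7 ratio was 3.81, 4.52 and 3.92 in sgPrkci and 0.593, 0.407 and 0.574 in sgPrkcz. This was the widest of the 3 gaps, 7.75-fold. The Cldn2 to Cldn3 ratio was 3.18, 3.76 and 2.26 in sgPrkci and 0.681, 0.581 and 0.696 in sgPrkcz, a 4.57-fold difference. The Cldn2 to Cldn4 ratio was 4.08, 5.59 and 3.47 in sgPrkci and 1.67, 1.23 and 1.88 in sgPrkcz, a 2.73-fold difference. In all 3 ratios every sgPrkci library lay above every sgPrkcz library. The 2-sided exact permutation p was 0.1 for each, also when adjusted over the 3 ratios, which is the smallest that 3 against 3 libraries can give, so this test cannot reach 0.05.

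**Figure D2:**
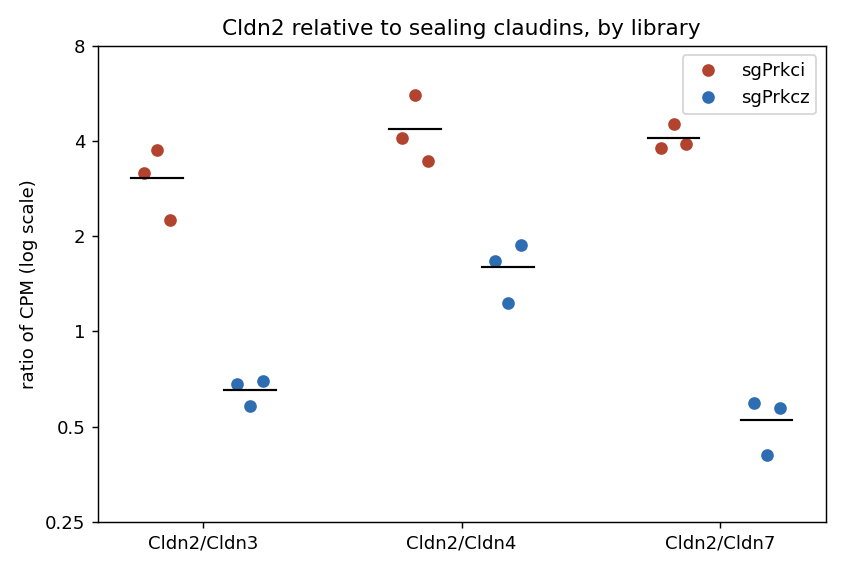
Ratio of Cldn2 CPM to the CPM of Cldn3, Cldn4 and Cldn7 (horizontal axis) in each library (points) on a log axis (vertical), with sgPrkci left of sgPrkcz and black lines for means. The sgPrkci points lie above the sgPrkcz points for all 3 ratios. The fold differences of 4.57, 2.73 and 7.75 come from mean log2 ratios with 1 CPM added to each gene, not from the lines drawn.

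The makeup of the claudin reads also differed. Cldn2 took 47.4%, 50.9% and 44.1% of the reads of the 13 claudins in the table in sgPrkci, with Wilson 95% intervals of 45.4 to 49.4%, 48.7 to 53.2% and 42.0 to 46.2%. In sgPrkcz it took 14.6%, 12.7% and 15.7%, with intervals of 12.8 to 16.6%, 10.6 to 15.2% and 13.4 to 18.4%. These intervals cover counting error only. Every sgPrkci share lay above every sgPrkcz share. Cldn7 took 11.7% ± 0.676 of claudin reads in sgPrkci and 27.7% ± 3.36 in sgPrkcz, and Cldn3 took 16.0% ± 3.14 in sgPrkci and 22.0% ± 0.576 in sgPrkcz (SD, n = 3 each). Shares of a total that Cldn2 is part of do not follow levels: the level of Cldn3 was higher in sgPrkci. For Cldn4 the shares were 11.1% ± 1.85 in sgPrkci and 9.14% ± 1.06 in sgPrkcz, and the libraries of the groups overlapped.

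The sum over the 13 claudins was 873.1, 882.2 and 782.0 CPM in sgPrkci, against 493.2, 497.7 and 476.9 CPM in sgPrkcz. Leaving out Cldn2, the other 12 summed to 459.4, 432.9 and 437.2 CPM in sgPrkci, against 421.3, 434.3 and 402.0 CPM in sgPrkcz. On the CPM as deposited the full sums were apart. The sums without Cldn2 overlapped, with means of 443.2 ± 14.2 CPM in sgPrkci and 419.2 ± 16.2 CPM in sgPrkcz (SD, n = 3 each). TMM factors, which set libraries level by the bulk of their genes, were 0.970, 0.964 and 0.947 in sgPrkci, against 1.061, 1.042 and 1.021 in sgPrkcz. Dividing by them raises sgPrkci relative to sgPrkcz. The sums were not taken with that scaling, so the overlap is that of the deposited CPM.

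The genes whose log2(CPM + 1) most resembled that of Cldn2 over the 6 libraries were Maml2, Sel1l3, Nfkbia, Khdc1a and Fam129b, with Pearson's r of 0.9988, 0.9985, 0.9979, 0.9979 and 0.9979. Maml2 is a coactivator of Notch, and Nfkbia encodes the inhibitor that holds NF-κB in the cytoplasm. Nfkbia had 1457, 1443 and 1266 CPM in sgPrkci, against 329.3, 286.2 and 372.1 CPM in sgPrkcz. The order rests on small differences: with TMM Khdc1a and Fam129b were not among the first 5, nor was Nfkbia with a pseudocount of 10. The 6 points fall into the 2 groups, and 474 of the 9558 fitted genes had r above 0.95, so r here mostly describes the gap between groups.

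**Figure D3:**
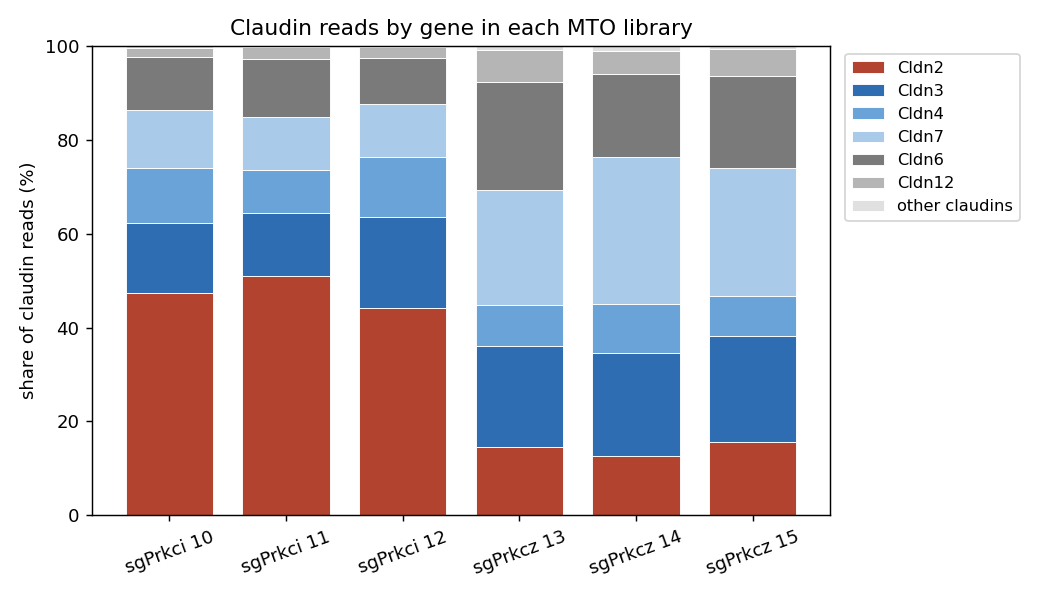
Share of the reads of all 13 claudins in the table (vertical axis, percent) taken by each claudin in each library (stacked bars), with the sgPrkci libraries left of the sgPrkcz libraries. Cldn2 takes 44.1 to 50.9% of the sgPrkci bars and 12.7 to 15.7% of the sgPrkcz bars.

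Among the other membrane proteins, F11r (JAM-A), which binds PAR3 of the polarity complex, was higher by a narrow margin. It had 370.0, 364.8 and 301.9 CPM in sgPrkci, against 260.0, 293.1 and 316.0 CPM in sgPrkcz. The groups overlapped, since sgPrkci replicate 12 lay below sgPrkcz replicate 15. F11r was higher in sgPrkci by 0.25 ± 0.09 on the log2 scale (SE, limma adjusted p = 0.0284). The call was lost without sgPrkci replicate 10 (0.20, adjusted p = 0.15), without sgPrkci replicate 11 (0.21, adjusted p = 0.11), without sgPrkcz replicate 13 (0.18, adjusted p = 0.151) and without the trend (adjusted p = 0.174). Ocln, a protein with a MARVEL domain, had 28.3, 30.4 and 29.1 CPM in sgPrkci, against 24.1, 25.7 and 26.3 CPM in sgPrkcz. The groups did not overlap, but the log2 difference of 0.20 ± 0.15 (SE, 95% interval -0.12 to 0.52) did not pass (limma adjusted p = 0.325), nor did it in any alternative.

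The scaffolds split. Tjp1 (ZO-1), which binds claudins, occludin and actin, had 147.5, 176.1 and 150.9 CPM in sgPrkci, against 205.8, 187.0 and 197.8 CPM in sgPrkcz. Every sgPrkci library lay below every sgPrkcz library. Tjp1 fell by 0.32 ± 0.09 on the log2 scale in sgPrkci (SE, limma adjusted p = 0.00698). With TMM scaling the log2 difference was -0.20 (adjusted p = 0.0739), and edgeR, DESeq2 and limma without the trend did not call it either (adjusted p = 0.0601, 0.158 and 0.0683).

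Tjp3 (ZO-3), a paralogue of Tjp1 found mainly in epithelia, had 23.8, 26.6 and 24.5 CPM in sgPrkci, against 17.8, 8.8 and 20.5 CPM in sgPrkcz. The groups did not overlap, and sgPrkcz replicate 14, with 14 reads, lay well below the other libraries. Tjp3 was higher by 0.71 ± 0.23 on the log2 scale in sgPrkci (SE, limma adjusted p = 0.0165). Without sgPrkcz replicate 14 the difference was 0.37 (adjusted p = 0.123), without sgPrkci replicate 11 it was 0.67 (adjusted p = 0.0534), and without the trend the adjusted p was 0.0829. Apba3, on the other strand, covers the 3' end of Tjp3 and was also lowest in sgPrkcz replicate 14, at 10.6, 12.1 and 4.97 CPM in sgPrkci, against 20.8, 1.88 and 16.4 CPM in sgPrkcz. Cgn (cingulin), which ties ZO-1 to actin and myosin, had 49.4, 57.9 and 51.1 CPM in sgPrkci, against 45.6, 40.2 and 56.2 CPM in sgPrkcz. The groups overlapped, and the log2 difference of 0.17 ± 0.14 (SE, 95% interval -0.12 to 0.45) did not pass (limma adjusted p = 0.354).

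Of the 9 genes, all of which passed the filter on low values, the test called 5 higher and 2 lower in sgPrkci, and Ocln and Cgn did not pass. Of all 9558 genes tested 40.9% passed, with 14.4% higher and 26.5% lower. Groups did not overlap for 7 of the 9 genes, 5 higher and 2 lower, and for 50.0% of all genes tested, 18.2% higher and 31.8% lower. The 9 genes were chosen with earlier results of these data known, so their counts beside all genes are a description and not a test. The median log2 difference of the 9 genes was 0.25, beside -0.11 over all genes tested. With TMM scaling, which sets libraries level by the bulk of their genes, these medians were 0.37 and 0.0028, and 5 of the 9 genes were higher and 1 lower, beside 20.8% higher and 19.7% lower (40.6% in all) over all genes tested. The counts were also 5 and 1 with edgeR, beside 21.0% higher and 20.2% lower (41.2% in all), and with DESeq2, beside 15.2% higher and 14.1% lower (29.3% in all). Limma without the intensity trend called 2 higher (Cldn2 and Cldn4) and 1 lower (Cldn7), beside 11.6% higher and 22.8% lower over all genes tested. Without sgPrkci replicate 11 it called 3 of the 9 genes higher, beside 12.8% of all genes tested. Taken relative to the median of all genes, the log2 differences were 2.61 for Cldn2, 1.16 for Cldn4, 0.42 for Cldn3 and -0.34 for Cldn7. They were 0.36 for F11r, 0.31 for Ocln, 0.28 for Cgn, 0.82 for Tjp3 and -0.21 for Tjp1. Each of the 9 kept its direction in all 16 alternatives, and its side of the threshold when the genes with ribosomal RNA sequence were left out before scaling.

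**Figure D4:**
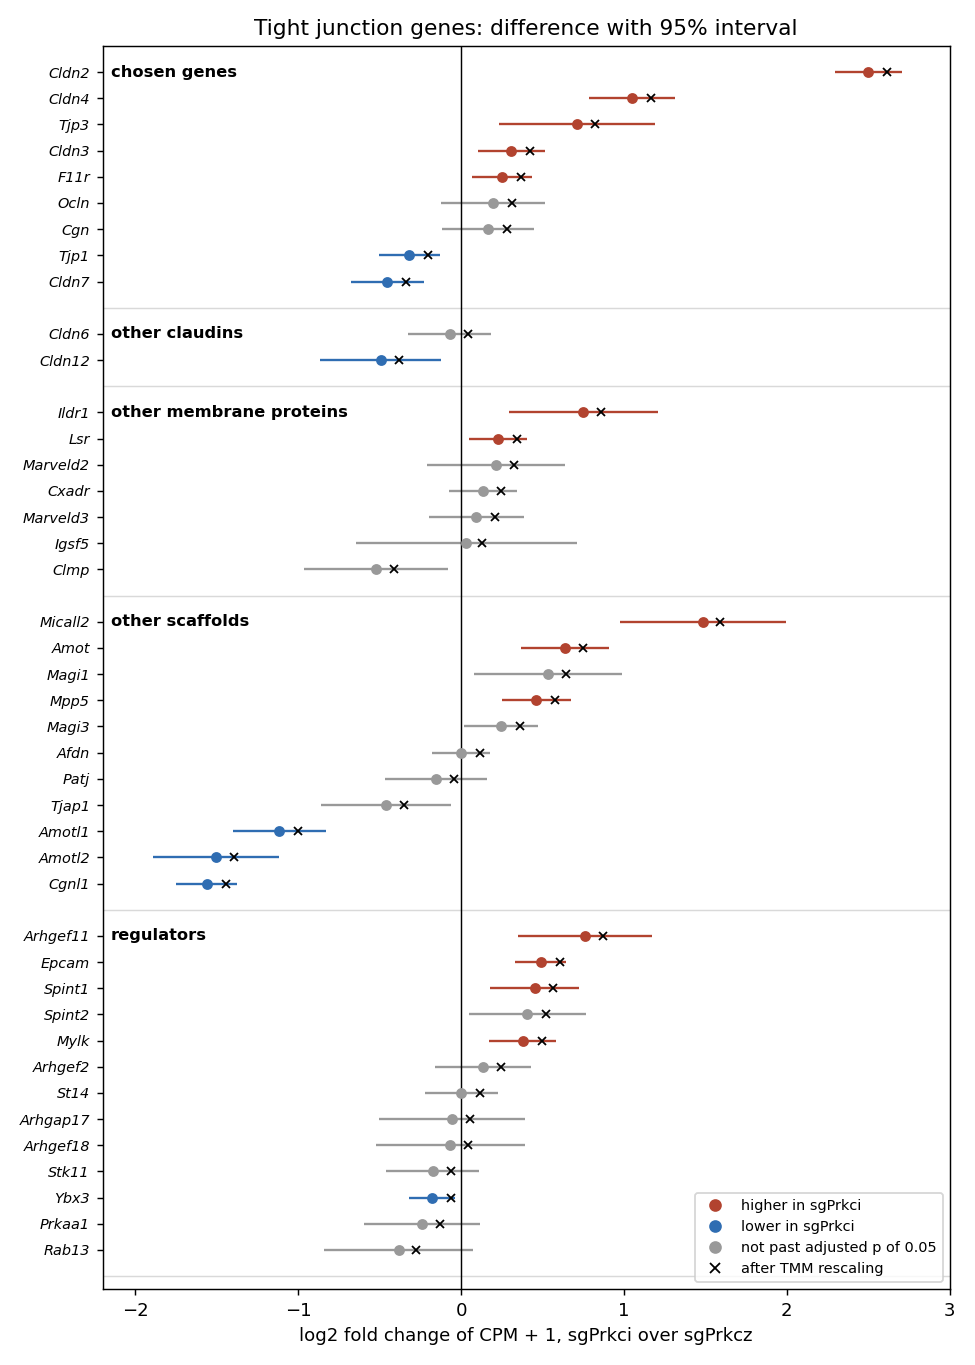
Difference in log2(CPM + 1) between sgPrkci and sgPrkcz (horizontal axis, positive when higher in sgPrkci) for the 9 chosen genes and other fitted tight junction genes by list, with points for estimates (red higher, blue lower, grey not past an adjusted p of 0.05), lines for 95% intervals and crosses for values after TMM rescaling. The differences run from -1.56 (Cgnl1) to 2.50 (Cldn2), and crosses lie right of the points, for Cldn6, Arhgap17 and Arhgef18 across 0.

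Of 31 further claudins listed, 9 were in the table and only Cldn6 and Cldn12 passed the filter, the others reaching at most 2.64 CPM. Cldn12 had 17.0, 22.9 and 19.5 CPM in sgPrkci, against 33.7, 23.8 and 27.5 CPM in sgPrkcz. It was lower in sgPrkci by the test (log2 difference -0.49, limma adjusted p = 0.0321), which held in 7 of 16 alternatives and was lost without sgPrkci replicate 10, sgPrkci replicate 12, sgPrkcz replicate 13 or sgPrkcz replicate 15 (adjusted p = 0.145, 0.0727, 0.162 and 0.0524). The call was also lost with TMM (-0.38, adjusted p = 0.0932), quantile normalization (0.097) and DESeq2 (0.199). It was lost too without the trend (0.0526) or the genes with ribosomal RNA sequence (0.0637). Cldn6, a claudin known from embryonic epithelia, had 98.1, 108.4 and 76.4 CPM in sgPrkci, against 113.5, 88.5 and 93.6 CPM in sgPrkcz. The groups overlapped, and the log2 difference of -0.07 (limma adjusted p = 0.68) was 0.045 with TMM.

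Of 11 further membrane proteins of the junction, 7 were fitted, with 2 higher and none lower. Over all genes tested 14.4% were higher and 26.5% lower. Ildr1, an angulin of the junctions where 3 cells meet, averaged 20.3 ± 5.76 CPM in sgPrkci and 11.5 ± 2.02 CPM in sgPrkcz (SD, n = 3 each), a log2 difference of 0.75 (limma adjusted p = 0.00921). Without sgPrkci replicate 10, the highest, it was 0.54 (adjusted p = 0.101). Lsr, another angulin, averaged 162.8 ± 2.63 CPM in sgPrkci and 139.1 ± 7.13 CPM in sgPrkcz, a log2 difference of 0.23 (limma adjusted p = 0.0402) that passed in 9 of 16 alternatives. The call was lost without sgPrkci replicate 10, 11 or 12 or sgPrkcz replicate 14 or 15 (adjusted p = 0.0824, 0.0758, 0.102, 0.124 and 0.0615). Marveld2 (tricellulin), which angulins bring to the same place, averaged 21.5 ± 3.14 CPM in sgPrkci and 18.8 ± 4.95 CPM in sgPrkcz and did not pass (limma adjusted p = 0.433). Marveld3, Cxadr, Igsf5 and Clmp, with log2 differences of 0.09, 0.13, 0.03 and -0.52, did not pass either (Igsf5 was at -0.016 with a pseudocount of 10). Cxadr passed with TMM (0.25, adjusted p = 0.0469) and Clmp in 3 of 16 alternatives, one of them without sgPrkcz replicate 14 (-0.65, adjusted p = 0.0294), and Jam2 stayed below the filter at no more than 6.79 CPM.

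Of 15 further scaffolds 12 were fitted, and 3 were higher and 3 lower, beside 14.4% and 26.5% of all genes tested. Cgnl1 (paracingulin), the closest relative of cingulin, had 147.5, 146.7 and 115.8 CPM in sgPrkci, against 411.7, 392.9 and 404.3 CPM in sgPrkcz. The groups were far apart, in contrast to those of Cgn. Cgnl1 fell by 1.56 on the log2 scale in sgPrkci (limma adjusted p = 8.41e-12). Angiomotins are scaffolds that bind Patj and can hold the growth regulator YAP at the junction. Amotl1 had 37.0, 29.0 and 33.7 CPM in sgPrkci, against 77.5, 81.6 and 60.9 CPM in sgPrkcz (log2 difference -1.11, limma adjusted p = 1.23e-06). Amotl2 had 9.81, 14.5 and 12.4 CPM in sgPrkci, against 37.1, 40.2 and 31.6 CPM in sgPrkcz (log2 difference -1.5, limma adjusted p = 1.14e-06). Amot had 60.7, 55.1 and 58.2 CPM in sgPrkci, against 33.0, 40.8 and 37.4 CPM in sgPrkcz (log2 difference 0.64, limma adjusted p = 0.000439). Thus Amot was higher, and its relatives lower, in every sgPrkci library than in any sgPrkcz library.

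Micall2, a partner of Rab13 in moving occludin to the membrane, had 17.0, 17.3 and 20.6 CPM in sgPrkci, against 5.93, 8.16 and 4.10 CPM in sgPrkcz (log2 difference 1.48, limma adjusted p = 4.3e-05). The sgPrkcz values rest on 7 to 16 reads. Mpp5 (Pals1), of the Crumbs polarity complex, had 189.3, 193.4 and 221.6 CPM in sgPrkci, against 162.4, 122.4 and 155.1 CPM in sgPrkcz (log2 difference 0.46, limma adjusted p = 0.000929). Neither gene's groups overlapped. Afdn, Patj, Tjap1, Magi1 and Magi3, with log2 differences of 0.0014, -0.16, -0.46, 0.53 and 0.24, did not pass. Magi1 and Magi3 passed as higher in 8 and 7 of 16 alternatives, among them TMM (0.64 and 0.36, adjusted p = 0.019 and 0.0102), Magi1 also without sgPrkci replicate 10 or sgPrkcz replicate 14 (adjusted p = 0.0285 and 0.0118) and Magi3 without sgPrkci replicate 11 or sgPrkcz replicate 13 (adjusted p = 0.0133 and 0.0419).

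Of 14 genes that act on tight junctions, all fitted, 5 were higher and 1 lower, beside 14.4% and 26.5% of all genes tested. Epcam, which binds Cldn7, had 790.2, 823.4 and 700.0 CPM in sgPrkci, against 586.3, 519.6 and 538.9 CPM in sgPrkcz. The groups did not overlap, and Epcam was higher by 0.49 on the log2 scale in sgPrkci (limma adjusted p = 1.96e-05), whereas Cldn7 was lower. Spint1, an inhibitor of the protease matriptase, was higher by 0.45 (limma adjusted p = 0.00846), and did not pass without sgPrkci replicate 12, at 0.39 (adjusted p = 0.0504). Matriptase itself (St14) averaged 77.0 ± 2.24 CPM in sgPrkci and 77.1 ± 7.11 CPM in sgPrkcz (SD, n = 3 each). Arhgef11, an exchange factor that binds ZO-1, was higher by 0.76 (limma adjusted p = 0.00387), and Mylk, the myosin light chain kinase, by 0.38 (limma adjusted p = 0.00409, and 0.0541 without the trend). Ybx3 (ZONAB), a factor held at the junction by ZO-1, fell by 0.18 (limma adjusted p = 0.0367), which held in 4 of 16 alternatives: with TMM the difference was -0.06 (adjusted p = 0.495), and of the libraries only sgPrkcz replicate 15 could be left out without losing the call (adjusted p = 0.0545 to 0.121 for the others). Rab13, Arhgef2, Prkaa1, Stk11 and Spint2, with log2 differences of -0.38, 0.13, -0.24, -0.17 and 0.41, did not pass. Spint2, another inhibitor of matriptase, passed as higher in 7 of 16 alternatives, with TMM (0.52, adjusted p = 0.0126) and without sgPrkci replicate 12 or sgPrkcz replicate 13 (0.64 and 0.61, adjusted p = 0.00391 and 0.00558). Arhgef18 and Arhgap17, at -0.07 and -0.06 and at 0.044 and 0.055 with TMM, did not pass either.

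The 4 lists together held 35 fitted genes, of which the test called 10 higher and 5 lower and left 20 uncalled, beside the 14.4% higher and 26.5% lower over all genes tested. Their median log2 difference was 0.09, and 0.21 with TMM, with which 15 were higher and 3 lower, beside 20.8% higher and 19.7% lower over all genes with that scaling. Without sgPrkci replicate 10, sgPrkci replicate 12 or sgPrkcz replicate 13, 3 of them were lower, beside 22.2%, 22.1% and 22.7% of all genes tested. These lists too were chosen with earlier results of these data known. In adherens junctions, which lie just below tight junctions and hold cells together, 10 of 13 listed genes were fitted. Nectin4 was higher (log2 difference 0.61, limma adjusted p = 0.0188), but not without sgPrkci replicate 10, sgPrkci replicate 11 or sgPrkcz replicate 14 (adjusted p = 0.0576, 0.0766 and 0.108). Cdh1 (E-cadherin) fell by 0.51 (limma adjusted p = 2.03e-05) and Pkp4, an armadillo protein, by 0.46 (limma adjusted p = 0.000662). Cdh1 averaged 890.2 CPM in sgPrkci and 1264 CPM in sgPrkcz. The catenins Ctnna1, Ctnnb1 and Ctnnd1, with log2 differences of -0.15, 0.08 and -0.32, did not pass, nor did Vcl, Plekha7 and Nectin2 at 0.22, 0.14 and 0.07 or Jup at -0.04 (0.073 with TMM). Ctnnb1 and Vcl passed as higher in 4 of 16 alternatives each, with TMM at 0.19 and 0.33 (adjusted p = 0.03 and 0.0141). Ctnna1 passed as lower without sgPrkci replicate 12 (-0.19, adjusted p = 0.0459), and Ctnnd1 did so without sgPrkci replicate 11 (-0.62, adjusted p = 0.00764) but was at 0.056 without sgPrkci replicate 12.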

How the data were processed

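RNA from MTOs was read from 6 QuantSeq 3' FWD libraries, 3 labelled sgPrkci and 3 labelled sgPrkcz, by single-end Illumina sequencing. The deposited values are CPM, reads per gene scaled by the authors to a fixed total in each library, on genome build GRCm38. The sources used here do not give the aligner, counter or annotation release, nor whether molecular identifiers were collapsed. Values above 0 were whole multiples of the value of 1 read, in 100% of cases within 0.01, so whole reads were recovered. With 1593480 to 2815760 reads per library, values of a few CPM carry large counting error. Symbols were found for 20675 of 20756 identifiers, and coordinates are those of GENCODE M21.

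The main comparison used limma 3.58.1 (R 4.3.3) with its intensity trend and log2(CPM + 1) values. It covered the 9558 genes that reached 5 CPM in 3 or more libraries. P-values were adjusted by Benjamini-Hochberg over all of them, with a threshold of 0.05. Such log2 differences understate the change of low genes. The 16 alternatives covered scaling, pseudocount, filter, trend, leaving out the genes with ribosomal RNA sequence, leaving out each library, and edgeR 4.0.16 or DESeq2 1.42.0 on recovered reads. The test was checked on simulated data. The genes named were the 9 members, the called genes of the other lists, each junction gene that reached 5 CPM, the 5 genes most like Cldn2, Prkci and Prkcz. A few genes taken by it were counted with their lists, and their own values are not reported here. The members and lists were chosen with earlier results of these data known. Promoter sequences are from RefSeq (GRCm38.p6) and matched all 9 genes, in 12 windows.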

Additional observations from a re-analysis of the deposited data

How the results depend on the processing

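Over 55 genes of the lists and the 16 alternatives, 744 results kept their direction and their side of the threshold, 50 lost the call, 40 gained it and 45 changed sign. The number of the 9 genes called lower was 1 with TMM, without the intensity trend, with edgeR and with DESeq2. Those settings called 19.7%, 22.8%, 20.2% and 14.1% of all genes tested lower. The number of the 9 genes called higher was 2 without the trend (11.6% of all genes tested). The number of other tight junction genes called lower was 3 with TMM, with quantile normalization, without the genes with ribosomal RNA sequence and with DESeq2. In each of those settings a smaller share of all genes tested was lower too than the 26.5% of the main test. That share was 19.7% with TMM and 14.1% with DESeq2. Leaving out 1 library at a time, 3 to 5 of the 9 genes were higher and 2 lower. Of the other tight junction genes, 8 to 12 were higher and 3 to 5 lower. The count of 8 came without sgPrkci replicate 10 and without sgPrkcz replicate 15. There fewer of all genes tested were higher than with every library. The count of 12 came without sgPrkcz replicate 13, where slightly more of all genes tested were higher. The log2 ratios of Cldn2 to Cldn3, Cldn4 and Cldn7 were compared in the same way. Their differences, sgPrkci minus sgPrkcz, were 2.03 to 2.4, 1.26 to 1.6 and 2.78 to 3.05. The calls over all genes tested moved too. Without sgPrkci replicate 11, where 3 of the 9 genes were higher, 12.8% of all genes were higher, beside 14.4% with every library. Without sgPrkci replicate 10, sgPrkci replicate 12 or sgPrkcz replicate 13, 3 other tight junction genes were lower. There 22.2%, 22.1% and 22.7% of all genes were lower, beside 26.5% with every library. Over all genes DESeq2 called 1450 higher and 1350 lower, edgeR 2011 and 1930, limma with TMM 1992 and 1886, and limma on the CPM as deposited 1377 and 2534. The cause of these shifts was not tested.

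The sign changes were all in genes that did not pass the test. With TMM, quantile normalization, the genes with ribosomal RNA sequence left out, edgeR and DESeq2 the log2 difference was 0.044, 0.089, 0.0020, 0.12 and 0.094 for Arhgef18, 0.055, 0.082, 0.013, 0.034 and 0.029 for Arhgap17, and 0.073, 0.028, 0.029, 0.051 and 0.056 for Jup. For Cldn6 it was 0.045 with TMM, 0.0012 without the genes with ribosomal RNA sequence, 0.024 with edgeR and 0.037 with DESeq2, and for Prkci it was 0.094 with TMM, 0.074 with quantile normalization, 0.050 without those genes and 0.010 with DESeq2. Igsf5 was at -0.016 with a pseudocount of 10 and could not be fitted with a filter of 10 CPM. Leaving out 1 library at a time gave ranges of -0.40 to 0.32 for Igsf5, -0.062 to 0.064 for Afdn, -0.00085 to 0.29 for Arhgef2, -0.26 to 0.071 for Arhgef18, -0.31 to 0.15 for Arhgap17, -0.18 to 0.073 for Cldn6, -0.075 to 0.052 for St14, -0.62 to 0.056 for Ctnnd1, -0.0074 to 0.19 for Nectin2, -0.32 to 0.20 for Prkci, -0.11 to 0.049 for Jup and -0.010 to 0.36 for Marveld2.

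No paired analysis was run, because the labels do not say whether any sgPrkci library belongs with an sgPrkcz library. Depth limits the low genes most: Tjp3 in sgPrkcz replicate 14 rests on 14 reads, and Prkcz on 5 to 13 reads per library.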
